A study of Mus musculus with 13 samples.

Results

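The oligodendrocyte lineage transcription factors were followed in the bulk RNA-seq data of the cuprizone (CPZ) model. They were Olig1, Olig2, Sox10, Sox8, Myrf, Nkx2-2, Nkx6-2, Zfp488, Tcf7l2 and Zfp536, chosen by gene symbol as 10 of the 55401 genes in the count table, and each symbol stood on 1 row. The 13 libraries came from snap-frozen brain hemispheres of male wild-type C57BL/6J mice, 1 hemisphere from each brain, so that white matter, cortex and deeper regions were read together. Control mice (CTL, n = 5 libraries) ate control chow for 6 weeks, CPZ mice (n = 4 libraries) ate chow with 0.3% cuprizone for 4 weeks, and recovery mice (RCV, n = 4 libraries) ate the cuprizone chow for 4 weeks and then control chow for 2 weeks. The study collected 5, 4 and 4 samples, but the labels and methods count 4, 3 and 3 mice in these groups. Whether each library is a separate mouse is therefore not settled, and the p-values measure the spread between libraries, which may be technical. The labels put the mice at 6 to 8 weeks of age when the diets were given. CPZ brains were collected after 4 weeks and CTL and RCV brains after 6 weeks, so that the cuprizone diet and 2 weeks of age cannot be told apart when CPZ is set against the other groups.

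In the central nervous system, these factors work in sequence. OLIG2, a basic helix-loop-helix protein, specifies the lineage and is kept from the oligodendrocyte precursor cell (OPC) to the mature oligodendrocyte (MOL), with its partner OLIG1 active in maturation and repair. SOX10 and its relative SOX8 hold the lineage identity and act with MYRF, a factor released from a membrane anchor by its own cleavage, to switch on myelin genes. NKX2-2, NKX6-2, ZFP488, ZFP536 and the Wnt effector TCF7L2 have been placed at steps of differentiation. Cuprizone is a copper chelator that kills MOLs and strips myelin, which grows back once normal chow returns.

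Libraries held between 4605100 and 8197289 estimated counts, with RCV replicate 4 the smallest. The tissue carried its defining markers: the 14 listed myelin genes (Mbp, Mog, Mag and others) summed to between 4635 and 8626 CPM (counts scaled to library size, with TMM factors) in CTL, 2012 to 3392 in CPZ and 6031 to 10260 in RCV. The 5 listed markers of Schwann cells, which share Sox10 with this lineage, summed to 2.45 to 6.39 CPM in CTL, 7.21 to 8.50 in CPZ and 3.37 to 13.3 in RCV, so that CPZ lay above CTL, and their part in the values of the factors was not tested. Only 1 of the 5 passed the filter on low counts, and edgeR called it in none of the 3 contrasts (at an unadjusted p below 0.05 in 1 of them, RCV against CTL). Foxd3, a transcription factor of their lineage, had 0 to 2 counts per library. The regional make-up of the hemispheres was uneven. Thalamic neuron markers summed to 181.2 to 686.3 CPM in CTL, 319.2 to 620.8 in CPZ and 129.5 to 773.0 in RCV, and striatal neuron markers spread from 170.1 to 1040.0, 276.6 to 628.9 and 75.06 to 892.5 in the same order. Choroid plexus markers summed to 401.8 to 2663 CPM in CTL, 593.0 to 2276 in CPZ and 8.46 to 1388 in RCV. Of 5 listed cerebellar markers, 2 (Cbln1 and Calb1) passed the filter on low counts. Pcp2 had 0 to 2 and Gabra6 0 to 4 counts per library. How much cerebellum the samples held was not tested.

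On the TPM scale, which accounts for transcript length and library size, Olig1 stood at the head of the 10 factors in CTL, at 119.6 ± 10.96 TPM (SD, n = 5), and its lowest CTL library (108.0) lay above the highest value of any other factor. Sox10 came next at 45.2 ± 4.85 TPM, then Tcf7l2 at 39.1 ± 20.4, Sox8 at 35.7 ± 6.38, Myrf at 33.6 ± 7.13, Olig2 at 25.9 ± 4.28, Zfp536 at 23.9 ± 3.43 and Nkx6-2 at 23.7 ± 3.01. Neighbours from Sox10 to Nkx6-2 overlapped in their ranges over the 5 libraries, so that their order was not set beyond the spread, and medians in place of means exchanged Sox10 and Tcf7l2. Nkx2-2, at 9.61 ± 1.78 TPM, lay below every Nkx6-2 value, and Zfp488, at 2.13 ± 0.567 TPM, was lowest in all 5 libraries. The same 2 factors had the thinnest data, with 40 to 58 estimated counts for Nkx2-2 and 16 to 42 for Zfp488 in CTL.

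All 10 factors passed the filter on low counts and were among the 14985 genes tested with edgeR's quasi-likelihood F test, whose Benjamini-Hochberg adjusted p over all of these genes is used throughout, with a threshold of 0.05. Between CPZ and CTL, 2 of the 10 factors were called, Olig2 higher and Nkx6-2 lower, where 10.2% of all genes tested were called in either direction, 7.66% higher and 2.50% lower in CPZ. The groups did not overlap for 3 factors (Olig2, Nkx6-2 and Zfp536), where this held for 13.1% of all genes, 8.25% with CPZ higher and 4.86% with CPZ lower. The median log2 fold change of the 10 factors was -0.13, beside -0.02 over all genes. All 14 myelin genes, by contrast, fell, and their log2 fold changes ran from -2.43 to -0.61 around a median of -1.50. Mal, a raft protein of myelin membranes, fell furthest (-2.43, SE 0.25, adjusted p = 4.64e-05). In hemisphere RNA, fewer cells of a type and less RNA per cell cannot be told apart.

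**Figure D1:**
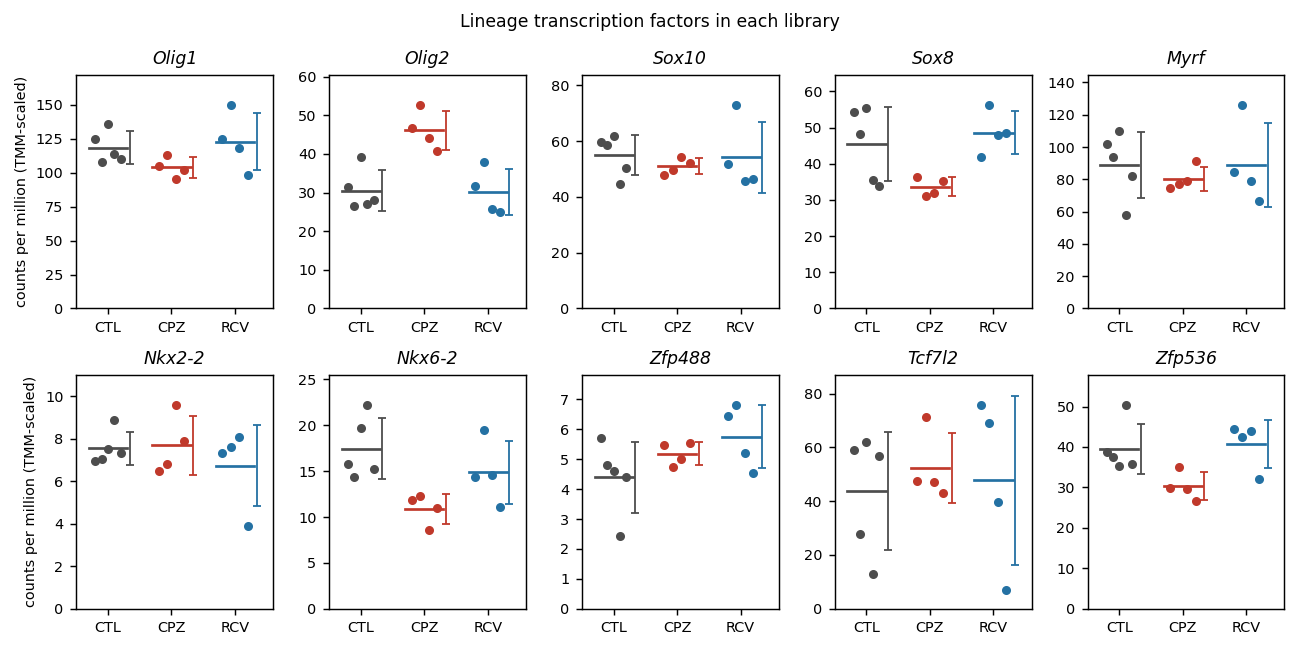
CPM (linear axis from 0, TMM-scaled) of the 10 transcription factors in the 5 CTL, 4 CPZ and 4 RCV libraries. Points are libraries, bars are group means and the whiskers beside them span 1 SD above and below; all 4 CPZ points of Olig2 (40.8 to 52.6) lie above all other Olig2 points, and the CPZ points of Nkx6-2 (8.60 to 12.3) lie below all CTL points.

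**Figure D2:**
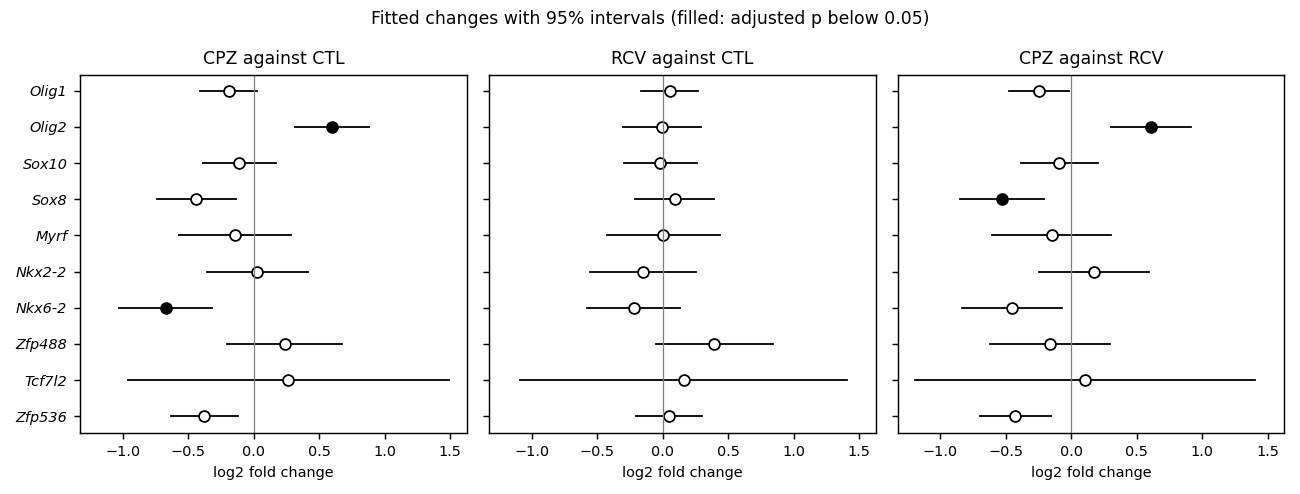
Log2 fold changes of the 10 transcription factors with 95% intervals in the 3 contrasts, from the edgeR fit of 13 libraries, with filled points for an adjusted p below 0.05. Olig2 (0.60 and 0.61) is filled in both contrasts with CPZ, Nkx6-2 (-0.67) only against CTL and Sox8 (-0.53) only against RCV, whereas no point is filled between RCV and CTL.

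Olig2 (ENSMUSG00000039830.9, chr16:91225457-91228677 of GRCm38, plus strand) was the factor that rose. It measured 31.5, 26.55, 39.2, 26.9 and 28.1 CPM in the CTL libraries, 46.8, 52.6, 44.1 and 40.8 CPM in the CPZ libraries, and 31.8, 37.9, 25.8 and 24.9 CPM in the RCV libraries. Every CPZ library exceeded every CTL and RCV library, and the RCV and CTL ranges overlapped. In CPZ, Olig2 was 51.3% higher than in CTL (95% interval 24.3% to 84.1%; log2 fold change 0.60, SE 0.13, adjusted p = 0.00714) and 52.1% higher than in RCV (23.2% to 87.8%; 0.61, SE 0.14, adjusted p = 0.0165), with the CPZ libraries shared by both contrasts. Leaving out CPZ replicate 2 or RCV replicate 3 raised the adjusted p against RCV to 0.0623 and 0.0565. The rise against CTL was called without each of the 13 libraries in turn. OLIG2 is also made by some astrocytes. Of 8 astrocyte markers, 4 passed the test as higher in CPZ against CTL and 2 (Aldh1l1 and Gfap) as higher in CPZ against RCV. Between RCV and CTL, 2 (Aqp4 and Gfap) were called higher in RCV. Of all genes, 7.66% and 5.13% were called higher in CPZ in the first 2 contrasts, and 0.374% in either direction in the third. The summed level of the 8 markers was 4181 to 4631 CPM in CTL, 4921 to 5930 in CPZ and 4948 to 5574 in RCV. Microglia markers moved with CPZ more widely, with 12 of 12 called higher and sums of 369.5 to 442.4 CPM in CTL, 1283 to 2642 in CPZ and 563.7 to 783.7 in RCV. The part of either cell type in the Olig2 result, or in the other CPZ results below, was not tested.

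The 250 bases before the RefSeq start of Olig2 (GRCm38.p6, chr16:91225300-91225549, plus strand) were searched because this was the factor with a higher level in CPZ. The first 157 of them, which end at the gene start of GENCODE M21, are shown. Capitals in the windows printed mark matches to 4 motifs searched on both strands, an E-box (CANNTG), a SOX motif (ACAAT), a MYRF motif (CTGGNAC) and a TCF motif (CTTTGA).
Olig2: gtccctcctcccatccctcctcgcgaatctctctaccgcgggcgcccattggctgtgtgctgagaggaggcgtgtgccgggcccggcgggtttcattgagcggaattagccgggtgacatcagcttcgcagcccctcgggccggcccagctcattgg
The 250 bases held 1 match, the SOX letters read on the opposite strand, which began 67 bases before the RefSeq start and so lies past the bases shown. Of the 32851 promoters of the same length, 27.7% held this motif, 66.2% the E-box, 16.1% the MYRF motif and 13.8% the TCF motif. A match is a string of letters and not a measured binding site.

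Olig1 lies 41094 bases beyond the end of Olig2 on the same strand of chromosome 16, and the adjacent genes differed in their CPZ values. Olig1 measured 125.1, 107.7, 136.0, 113.8 and 109.8 CPM in CTL, 104.9, 113.3, 95.3 and 101.9 CPM in CPZ and 124.6, 149.8, 118.4 and 98.4 CPM in RCV. The 3 groups overlapped, with no call in any contrast. The log2 fold change of Olig1 between CPZ and CTL was -0.19 (SE 0.10, 95% interval -0.41 to 0.03, adjusted p = 0.307), an interval that does not meet that of Olig2 (0.31 to 0.88). Both estimates come from the same libraries, and the difference between the genes was not tested. Per length, Olig2 stood at 20% to 24.3% of the Olig1 level in the CTL libraries, 33.8% to 39.1% in the CPZ libraries and 18.4% to 21.5% in the RCV libraries. The CPZ percentages were thus apart from all others. This ratio was formed after the values were seen and is given as a description, with no test.

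**Figure D3:**
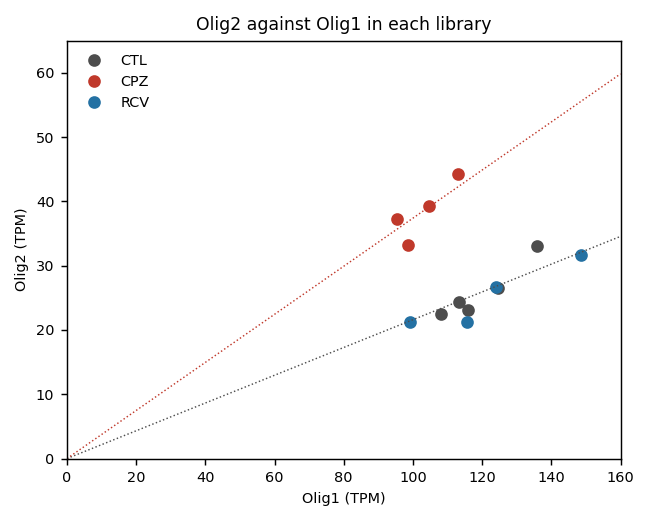
Olig2 against Olig1 in TPM, 1 point per library, with both linear axes from 0 and dotted lines through the mean ratio of CTL (21.6%) and of CPZ (37.4%). The 4 CPZ libraries sit at 33.8% to 39.1%, and the CTL and RCV libraries lie near the lower line, at 18.4% to 24.3%.

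Of the SOX factors, Sox8 (ENSMUSG00000024176.10, chr17:25565892-25570686, minus strand) was called in 1 contrast. It measured 54.2, 48.3, 55.3, 35.6 and 33.9 CPM in CTL, 36.45, 31.1, 31.9 and 35.25 CPM in CPZ and 41.8, 56.2, 47.9 and 48.6 CPM in RCV. All CPZ libraries were below all RCV libraries, whereas CTL replicates 4 and 5 reached into the CPZ range. In CPZ, Sox8 was 30.7% lower than in RCV (95% interval 13.5% to 44.5% lower; log2 fold change -0.53, SE 0.15, adjusted p = 0.0468). That call is a narrow one: it was lost without CTL replicate 2, any single CPZ replicate, or RCV replicate 2, 3 or 4 (adjusted p up to 0.129), and it was made under 3 of 11 other settings. Against CTL the Sox8 estimate was similar, -0.44 (SE 0.14, 95% interval -0.74 to -0.13), with an adjusted p of 0.0669 by edgeR. It was called under 2 of 11 other settings, the DESeq2 Wald test (0.0395) and the replicate block (0.0489), and not under the other 9, where the adjusted p reached 0.197 after thinning. It was called without 2 of the 13 libraries, CTL replicate 4 (0.0229) or 5 (0.0173), and reached 0.179 without CPZ replicate 2. The replicate block also left out CTL replicate 5, so the block and that omission cannot be told apart. Sox10, the central factor of the lineage, measured 59.8, 58.65, 61.8, 44.5 and 50.25 CPM in CTL, 48.0, 49.5, 54.25 and 52.3 CPM in CPZ and 51.6, 72.9, 45.8 and 46.4 CPM in RCV. Its groups overlapped, and its log2 fold change between CPZ and CTL was -0.11 (SE 0.13, 95% interval -0.39 to 0.17, adjusted p = 0.704). Sox8 TPM amounted to 66.0% to 93.6% of Sox10 TPM in CTL, 58.6% to 71.2% in CPZ and 73.3% to 101% in RCV.

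The window before Sox8 (GRCm38.p6, chr17:25570687-25570936, minus strand) is shown because the lower Sox8 level in CPZ was shared by an antisense neighbour whose exons overlap 329 bases of the Sox8 exons.
Sox8: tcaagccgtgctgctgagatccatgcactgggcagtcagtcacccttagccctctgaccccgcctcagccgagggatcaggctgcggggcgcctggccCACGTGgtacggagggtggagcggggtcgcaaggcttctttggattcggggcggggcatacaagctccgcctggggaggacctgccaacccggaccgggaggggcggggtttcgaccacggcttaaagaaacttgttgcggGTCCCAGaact
Capitals mark an E-box (CACGTG) 152 bases before the start and a MYRF match (GTCCCAG, on the opposite strand) 11 bases before it. The neighbour, 2810468N07Rik, stood at 16.8 to 28.1 CPM in CTL, 11.8 to 15.3 in CPZ and 17.1 to 27.5 in RCV. It was called lower in CPZ against CTL (log2 fold change -0.69, SE 0.17, adjusted p = 0.0121) and against RCV (-0.69, SE 0.18, adjusted p = 0.0266). Whether strand was used in counting is not given in the sources used here. Without it, reads from the shared bases can be divided between the genes only by estimate.

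Nkx6-2 (ENSMUSG00000041309.17, chr7:139579376-139582797, minus strand), a homeodomain gene of mature oligodendrocytes, was the factor called lower between CPZ and CTL. It measured 15.8, 14.4, 19.7, 22.2 and 15.2 CPM in CTL, 11.8, 12.3, 8.60 and 11.0 CPM in CPZ and 14.4, 19.4, 14.6 and 11.1 CPM in RCV. The CPZ and CTL ranges were apart, and RCV replicate 4 reached into the CPZ range. In CPZ, Nkx6-2 was 37.3% lower than in CTL (95% interval 19.8% to 51.0% lower; log2 fold change -0.67, SE 0.17, adjusted p = 0.0143). Without CPZ replicate 3, the lowest library, the log2 fold change was -0.57 with an adjusted p of 0.0547, and without any other library the call was made. Against RCV the difference was -0.45 (SE 0.18, 95% interval -0.84 to -0.07, adjusted p = 0.168). Nkx6-2 shares 246 exonic bases with Inpp5a on the opposite strand, a phosphatase gene that did not pass the test (-0.12, SE 0.15, adjusted p = 0.717).

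The window before Nkx6-2 (GRCm38.p6, chr7:139582798-139583047, minus strand) is shown for comparison with Olig2, the gene that went the other way.
Nkx6-2: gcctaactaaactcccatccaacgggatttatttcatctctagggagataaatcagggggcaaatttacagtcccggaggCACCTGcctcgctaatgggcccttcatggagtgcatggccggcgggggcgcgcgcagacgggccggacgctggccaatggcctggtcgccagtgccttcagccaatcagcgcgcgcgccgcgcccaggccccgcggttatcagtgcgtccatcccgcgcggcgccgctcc
It held 1 E-box (CACCTG), 170 bases before the start, and no match to the other 3 motifs. RefSeq promoters were found for 7 of the 10 factors.

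Nkx2-2, the related homeodomain gene that acts earlier in the lineage, measured 6.93, 7.05, 7.53, 8.87 and 7.335 CPM in CTL, 6.48, 6.81, 9.57 and 7.88 CPM in CPZ and 7.33, 7.61, 8.08 and 3.90 CPM in RCV. The groups overlapped, with 1 low RCV library. Its log2 fold change between CPZ and CTL was 0.03 (SE 0.18, 95% interval -0.36 to 0.41, adjusted p = 0.961), and its sign turned in the fits on TPM. Nkx2-2 shares 278 exonic bases with the antisense gene Nkx2-2os, which had 74 counts over all libraries.

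Myrf, without which myelin genes are not switched on, measured 101.8, 93.6, 109.7, 57.8 and 81.8 CPM in CTL, 74.5, 77.3, 78.7 and 91.3 CPM in CPZ and 84.3, 126.0, 78.9 and 66.35 CPM in RCV. CPZ lay inside the CTL range, whose lowest library, CTL replicate 4, also had the lowest myelin sum of CTL (4635 CPM). The log2 fold change of Myrf between CPZ and CTL was -0.15 (SE 0.20, 95% interval -0.58 to 0.28, adjusted p = 0.753). Zfp488, a zinc-finger gene of differentiating oligodendrocytes, measured 5.71, 4.80, 4.61, 2.45 and 4.40 CPM in CTL, 5.47, 4.74, 4.995 and 5.55 CPM in CPZ and 6.45, 6.80, 5.20 and 4.55 CPM in RCV. Its groups overlapped, and its log2 fold change was 0.23 between CPZ and CTL (SE 0.21, adjusted p = 0.590) and 0.40 between RCV and CTL (SE 0.21, 95% interval -0.05 to 0.84, adjusted p = 0.853).

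Zfp536, a zinc-finger gene expressed in the lineage and in other brain cells, measured 38.9, 37.65, 35.2, 50.3 and 35.8 CPM in CTL, 29.96, 35.1, 29.7 and 26.7 CPM in CPZ and 44.6, 42.4, 43.9 and 32.1 CPM in RCV. The CPZ and CTL ranges were apart by less than 0.1 CPM (35.13 against 35.19), and RCV replicate 4 fell within the CPZ range. Neither contrast passed the test, with -0.38 (SE 0.12, 95% interval -0.64 to -0.13, adjusted p = 0.0574) against CTL and -0.43 (SE 0.13, 95% interval -0.70 to -0.16, adjusted p = 0.0553) against RCV. The first was called under 1 of 11 other settings, the DESeq2 Wald test (0.0452), and its adjusted p reached 0.446 on unfiltered TPM. It was also called without 3 of the 13 libraries, CTL replicate 3 (0.0481), CPZ replicate 2 (0.0389) or RCV replicate 4 (0.0331), and lay between 0.0632 and 0.157 without any other. The second was called under the same 1 of 11 settings (0.0377), while on TPM its log2 fold change shrank to -0.23 with an adjusted p of up to 0.669. It was called without CTL replicate 4 (0.0195), CPZ replicate 2 (0.0444) or RCV replicate 4 (0.0183), and reached 0.162 with another library left out.

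Tcf7l2, the Wnt effector of newly formed oligodendrocytes that is also abundant in thalamic neurons, varied most between libraries of one group. It measured 59.0, 27.9, 61.9, 12.8 and 56.85 CPM in CTL, 47.5, 71.35, 47.3 and 43.1 CPM in CPZ and 75.6, 69.0, 39.65 and 6.94 CPM in RCV. The ratio of the highest to the lowest library was 4.82 in CTL, 1.65 in CPZ and 10.9 in RCV, against at most 2.33 for any other factor in any group. CTL replicate 4 and RCV replicate 4 were lowest in their groups, and they were also the lowest in the summed level of the 7 thalamic markers, at 181.2 and 129.5 CPM. RCV replicate 1 was highest in both, at 75.6 and 773.0 CPM. The orders did not match throughout. CTL replicate 3 had the highest Tcf7l2 of CTL (61.9 CPM) with a thalamic sum of 349.2 CPM, below replicates 1 (686.3) and 5 (643.9). The log2 fold change between CPZ and CTL was 0.26 (SE 0.55, 95% interval -0.96 to 1.49, adjusted p = 0.852), an interval that runs from -48.7% to 181%. It moved to 0.029, 0.14, 0.40 and 0.42 without CTL replicate 4, 2, 1 and 3, to 0.075 without CPZ replicate 2, to 0.46 by limma-voom and to 0.57 with the replicate block, and was called in none of these. None of the thalamic markers was called in any contrast by edgeR, with 0 of 7 at an unadjusted p below 0.05. The part of thalamic tissue in the Tcf7l2 values was not tested.

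**Figure D4:**
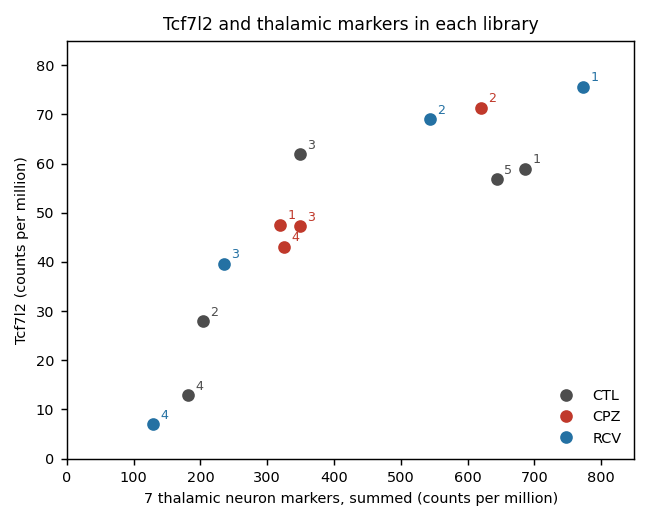
Tcf7l2 CPM against the summed CPM of 7 thalamic neuron markers, 1 point per library with its replicate number, on linear axes from 0. RCV replicate 4 (6.94 and 129.5) and CTL replicate 4 (12.8 and 181.2) lie at the lower left and RCV replicate 1 (75.6 and 773.0) at the upper right, with no separation of the 3 groups.

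After 2 weeks on control chow, none of the 10 factors passed the edgeR test against CTL, where 0.374% of all genes were called, and 0 of 10 reached an unadjusted p below 0.05. Ranges that did not overlap were found for 0 of 10 factors and 2.90% of all genes. The DESeq2 Wald test and limma-voom also called 0 of 10. The median log2 fold change of the factors was 0.03, and single values ran from -0.22 for Nkx6-2 (SE 0.17, 95% interval -0.57 to 0.13) to 0.40 for Zfp488. For Olig2 the interval was -0.31 to 0.29 and for Sox10 -0.30 to 0.26. Between CPZ and RCV, where 7.01% of all genes were called, with 5.13% up and 1.88% down in CPZ, Olig2 and Sox8 were the 2 factors called, and the same pair had ranges that did not overlap, as had 13.2% of all genes (8.26% with CPZ higher and 4.93% with CPZ lower). Summed over the 10 factors, libraries reached 375.2 to 531.0 CPM in CTL, 404.4 to 454.1 in CPZ and 343.3 to 588.2 in RCV, which overlapped, whereas the myelin sums of CPZ lay below those of both other groups.

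Other regulators of the lineage were given as lists for comparison. Of 21 coregulators, 20 were tested (Nkx6-1 was too low), and 2 rose in CPZ against CTL, where 7.66% of all genes were called higher. The median log2 fold change of the list was 0.05. The coregulators called were Sox9, which marks glial progenitors and astrocytes (0.48, SE 0.09, adjusted p = 0.00113), and Tcf12, a helix-loop-helix partner (0.27, SE 0.08, adjusted p = 0.0362). Sox9 was also called higher in CPZ than in RCV (0.39, SE 0.09, adjusted p = 0.0162). None of 9 inhibitors of differentiation (Id1 to Id4, Hes1, Hes5, Hey1, Sox5 and Sox6) passed the edgeR test in any contrast, with 2, 0 and 0 of them at an unadjusted p below 0.05 for CPZ and CTL, for RCV and CTL, and for CPZ and RCV. In the same order, 10.2%, 0.374% and 7.01% of all genes were called in either direction. Of 10 Wnt pathway genes, 0 were called between CPZ and CTL, with 1 at an unadjusted p below 0.05. Only Daam2, a formin that acts in Wnt signalling in this lineage, was called lower in CPZ than in RCV (-0.38, SE 0.10, adjusted p = 0.0325), as were 1.88% of all genes.

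Stage markers of the lineage gave 1 call of 7 OPC markers and 2 of 8 tested markers of committed and newly formed oligodendrocytes, all higher in CPZ than in CTL, where 7.66% of all genes were called higher. Among the OPC markers, Cspg4, the NG2 proteoglycan that pericytes also carry, rose in CPZ against CTL (0.45, SE 0.13, adjusted p = 0.0396), while Pdgfra, the receptor that defines OPCs, had a log2 fold change of -0.02 (SE 0.08, adjusted p = 0.944). The median of the list was 0.06, and its sums (399.9 to 487.1 CPM in CTL and 435.1 to 481.2 in CPZ) overlapped. The committed and newly formed markers that rose were Itpr2, a calcium release channel (0.57, SE 0.09, adjusted p = 0.000305), and Tns3, a focal adhesion protein (0.44, SE 0.09, adjusted p = 0.00296), and Itpr2 was also higher than in RCV (0.40, SE 0.09, adjusted p = 0.0141). Gpr17, which marks the committed stage, had a log2 fold change of 0.09 (SE 0.13, adjusted p = 0.767), and Casr was too low to be tested. Enpp6 stood at -0.14 against CTL (SE 0.19, adjusted p = 0.750) and -0.54 against RCV (SE 0.20, adjusted p = 0.125). Of the 8 tested, 7 lay above 0 between CPZ and CTL and 5 between CPZ and RCV. The median of this list between CPZ and CTL was 0.199, and its sums (465.3 to 561.4 CPM in CTL and 524.7 to 625.8 in CPZ) overlapped. Between RCV and CTL, none of the OPC, committed or myelin genes was called by edgeR, with 0 of 7, 2 of 8 and 0 of 14 at an unadjusted p below 0.05.

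**Figure D5:**
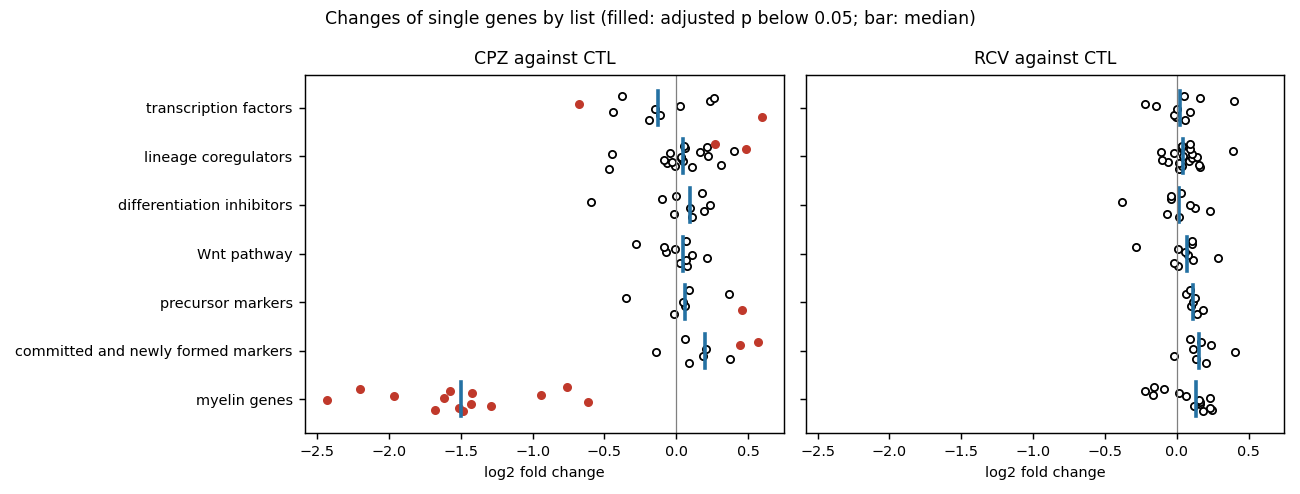
Log2 fold changes of single genes by list for CPZ and RCV against CTL, with 1 point per tested gene, filled for an adjusted p below 0.05, and a vertical bar at each list's median. The myelin genes form a separate row of filled points between -2.43 and -0.61 in CPZ, while the transcription factors spread on both sides of 0 around a median of -0.13.

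The tested genes whose log2-CPM followed each factor most closely over the 13 libraries are named as a description by Pearson correlation, which takes in the group differences, the shared depth and the regional make-up. For Olig2 they were Rab31, Arap3 and Creg1 (r of 0.971, 0.944 and 0.936). All of them were called higher in CPZ against CTL. Their choice by likeness to Olig2 over the same libraries made this likely, so it is no separate result. For Olig1 they were Gprc5b, Daam2 and Plaat3 (0.932, 0.911 and 0.903). Sox10 and Myrf went together, with Myrf among the nearest genes of Sox10 (0.931) and Fnbp1 nearest to both (0.939 for Sox10 and 0.971 for Myrf). Gatm and Gjc3, a glial connexin, came next for Myrf (0.955 and 0.943), and Kat14 for Sox10 (0.920). For Sox8 they were Cmtm5, Gsn and Gm37111 (0.917, 0.911 and 0.887), and for Nkx6-2 they were Tppp3, Cmtr1 and Amn (0.895, 0.893 and 0.888). Tcf7l2 had Shox2, Gm19345 and Ntng1 (0.982, 0.949 and 0.942), of which Ntng1 was on the thalamic list and Shox2 ran from 0.76 to 36.3 CPM in CTL. For Nkx2-2 they were L3mbtl3, Elp4 and Polk, for Zfp488 Sema3e, Epha8 and Inpp5j, and for Zfp536 Znhit2, Usp20 and Map3k4, with r between 0.876 and 0.921. With rank correlation or with group means subtracted, between 0 and 3 of each set of 3 were named again. For Olig2 and Nkx6-2 it was 0 by both measures, and all 3 came back only for Sox10 by rank correlation.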

How the data were processed

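Reads of 13 bulk libraries (Kapa mRNA HyperPrep Kit, HiSeq2500) were processed by the authors with the RNASequest pipeline. STAR, RSEM and the mm10 build are named in the submitters' processing notes; for versions, annotation and strand setting, the sources used here give nothing. The authors deposited estimated counts, which are not scaled, and TPM values, which are scaled to length and depth. Groups came from the treatment labels, where the RCV titles begin with "Veh". All 13 libraries entered the main edgeR fit. The paper gives an older age than the labels. The members and lists of genes were chosen with earlier results of these data known.

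Estimated counts were rounded, filtered with filterByExpr of edgeR 4.0.16, given TMM factors and entered into a single quasi-likelihood fit (robust option) with a mean per group. Benjamini-Hochberg adjustment covered 14985 genes. Per-library CPM values carry no prior count, and log2-CPM for correlations used a prior count of 2. The named genes are the 10 factors, the 3 genes most like each, genes overlapping a factor, and up to 2 called rises and falls per list. Some genes under this rule or on these lists are not reported here. Other genes were named after their values were seen, among them Pdgfra, Gpr17, Enpp6, Foxd3, Nkx6-1, Casr and the cerebellar markers. Coordinates and exon overlaps are from GENCODE M21 (mm10), in which 54349 of the 55401 identifiers were found with the same version, and promoters are from RefSeq (GRCm38.p6). The test was checked on simulated counts. In the 22 within-group pairs of libraries, the chi-square of the counts was 4.49 to 17.8 for each gene, more than counting error gives, so no library was a copy of another. Alternatives were DESeq2 1.42.0 (size factors or Wald test), limma 3.58.1 (voom, or log2 TPM after adding 1 or 0.1, filtered to genes reaching 1 TPM in 4 libraries or unfiltered), other count filters, 2 groups per fit, a replicate block, thinning to one depth, and each library left out. R 4.3.3, Python 3.11.15, pandas 2.3.3, numpy 2.4.6 and matplotlib 3.10.9 were used.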

Additional observations from a re-analysis of the deposited data

Results flagged for a closer look

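In 3 of 30 groups of values (10 factors in 3 groups), 1 library stood far from the others by Dixon's criterion, where chance marks about 1 in 20 groups, or 1.5 of 30. Nkx2-2 in RCV replicate 4 was at 3.9 CPM, and the other RCV libraries were at 7.33 to 8.08. Zfp536 in CTL replicate 4 was at 50.3 CPM, with the others at 35.2 to 38.9. Zfp536 in RCV replicate 4 was at 32.1 CPM, with the others at 42.4 to 44.6. CTL replicate 4 and RCV replicate 4 were also the libraries with the lowest Tcf7l2 and the lowest thalamic marker sums, and RCV replicate 4 was the smallest library, with 4605100 counts.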

How the results depend on the processing

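Olig2 was called higher in CPZ than in CTL under all 11 other settings and without each of the 13 libraries (log2 fold change 0.53 to 0.70), and Nkx6-2 was called lower under all 11 and without 12 of the 13. The DESeq2 Wald test called 4 factors in that contrast (Olig2, Sox8, Nkx6-2 and Zfp536), and leaving out libraries gave 1 to 3, with 1 without CPZ replicate 3. Between CPZ and RCV, 1 factor, Olig2, was called by limma-voom, by limma on TPM (adding 1 or 0.1 before the log), with no filter on counts, with at least 10 counts in every library and with the replicate block. No factor (0) was called there on unfiltered TPM, where Olig2 had an adjusted p of 0.0670, or after thinning, where it had 0.0812, and leaving out libraries gave 0 to 3. No setting called a factor between RCV and CTL.

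Over all genes, CPZ against CTL gave 992 calls on unfiltered TPM against 1522. RCV against CTL gave 131 by the DESeq2 Wald test, 12 by limma-voom, 22 on unfiltered TPM and 20 with at least 10 counts in every library, against 56, and 21 to 87 with a library left out. The count moved by over 1.5 times without CTL replicate 1 (26), 3 (29), 4 (30) or 5 (29), CPZ replicate 3 (87), or RCV replicate 1 (33) or 2 (21). CPZ against RCV gave 599 and 508 on TPM with a pseudocount of 1 and 0.1 and 487 on unfiltered TPM, against 1050, and 632 to 1170 with a library left out, the lowest without CPZ replicate 1 (632) and 2 (693). The cause of these shifts was not tested. The median of all genes moved by less than 0.1 under every alternative, from -0.04 to 0 in CPZ against CTL.

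Signs turned only for factors that were not called. Between CPZ and CTL, Nkx2-2 became -0.18, -0.20 and -0.18 on TPM (pseudocount 1, 0.1 and unfiltered) and -0.0075 after thinning. Between RCV and CTL, Myrf became -0.042, -0.043 and -0.042 on TPM, -0.00034 by limma-voom, -0.0059 with no filter, -0.037 with the replicate block and -0.019 after thinning, Zfp536 became -0.063, -0.066 and -0.063 on TPM, and Olig2 became 0.074 after thinning. Between CPZ and RCV, Sox10 became 0.0010 after thinning. With a library left out, the log2 fold changes that turned ran from -0.088 to 0.10 for Nkx2-2 in CPZ against CTL. In RCV against CTL they ran from -0.056 to 0.14 for Olig1, -0.14 to 0.10 for Olig2, -0.20 to 0.054 for Sox10, -0.21 to 0.11 for Myrf, -0.23 to 0.018 for Nkx2-2 and -0.15 to 0.50 for Tcf7l2. In CPZ against RCV they ran from -0.17 to 0.085 for Sox10, -0.25 to 0.067 for Myrf and -0.23 to 0.41 for Tcf7l2.

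The titles give replicate numbers. Deviations from the group means correlated at -0.20 to 0.14 between libraries with the same number, and 3 of 12 pairs exceeded 0.1. Pairs with different numbers correlated at -0.205 to 0.265, with 15 of 44 over 0.1. Whether libraries with the same number shared a processing batch was not tested. The replicate block, which left out CTL replicate 5 because no other group has that number, gave 1163, 42 and 782 genes in the 3 contrasts. It called Sox8 between CPZ and CTL (-0.51, adjusted p = 0.0489), did not call it between CPZ and RCV (adjusted p = 0.0624), and changed no other call of a factor. Depth limits Zfp488 and Nkx2-2, with 16 to 44 and 18 to 69 counts per library.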
